A study of Mus musculus with 62 samples.

Results

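The genes described here are 10 heat shock chaperones and co-chaperones out of the 18821 genes listed in 3 count tables from female C57BL/6 mice, followed across liver, prefrontal cortex and striatum. They are Hspa1a, Hspa1b, Hspa8, Hsph1, Dnajb1, Hsp90aa1, Hspb1, Hspd1, Hspe1 and Bag3, chosen by name and matched by mouse Entrez identifier. All 10 were listed in each table and all 10 passed the filter on low counts in each tissue. The mice had swallowed the MARBLES mixture of polychlorinated biphenyls (PCBs, persistent chlorinated industrial compounds) at 0.1, 1 or 6 mg/kg, or vehicle alone, which is the 0 mg/kg group. All groups shared strain and sex. Each brain region had 4 vehicle, 5 low-dose (0.1 mg/kg), 6 middle-dose (1 mg/kg) and 6 high-dose (6 mg/kg) libraries, and the liver had 4, 4, 6 and 6. Age, length of exposure and whether each library came from its own mouse are not given in the sources used here, so the p-values measure the spread between these libraries. The number in each library's title is called the animal number below.

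Heat shock chaperones bind proteins that have not folded or have lost their fold. In unstressed cells the transcription factor HSF1 is held inactive by chaperones, and when misfolded protein draws the chaperones away, HSF1 binds heat shock elements, which are repeats of the letters GAA in alternating orientation, and switches on a shared set of genes. Hspa1a and Hspa1b are neighbouring genes for the inducible HSP70. Hspa8 encodes HSC70, its constitutive relative. Dnajb1 is an HSP40 co-chaperone that hands clients to HSP70. Hsph1 (HSP110) and Bag3 are both nucleotide exchange factors for HSP70, and Bag3 also links it to selective autophagy. Hsp90aa1 is the stress-inducible form of HSP90, and Hspb1 (HSP25 in the mouse) is a small heat shock protein that holds unfolded clients. Hspd1 (HSP60) and Hspe1 (HSP10) form the chaperonin of the mitochondrial matrix. These last members therefore go against the name "cytosolic heat shock chaperones", and they are counted among the 10 in every count and median below.

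The stretches upstream of an annotated start of 6 members are shown because HSF1 acts on such elements and because the near-identity of Hspa1a and Hspa1b bears on how their reads were counted. They were read from the RefSeq promoter table of GRCm38.p6, 5′ to 3′ on the gene's strand. Hsph1 and Hspd1 have 2 starts each in that table, and the first of Hsph1 and the second of Hspd1 were used. Both starts lie inside the outer gene bounds given below, and so do these 2 stretches. Capitals mark matches to GAANNTTC or TTCNNGAA, and in Hspe1 and Hspd1 the stretch covered by 2 overlapping matches to the longer form described below.
Hspa1a, bases -130 to -1 from the start, chr17:34972157-34972286, minus strand: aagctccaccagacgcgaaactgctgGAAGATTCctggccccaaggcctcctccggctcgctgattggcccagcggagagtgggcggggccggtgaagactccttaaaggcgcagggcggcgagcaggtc
Hspa1b, bases -130 to -1, chr17:34959239-34959368, minus strand: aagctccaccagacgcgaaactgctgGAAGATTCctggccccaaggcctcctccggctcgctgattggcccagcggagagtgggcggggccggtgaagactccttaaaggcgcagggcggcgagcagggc
Hsph1, bases -45 to -16, chr5:149636352-149636381, minus strand: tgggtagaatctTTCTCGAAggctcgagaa
Hspb1, bases -130 to -71, chr5:135887789-135887848, plus strand: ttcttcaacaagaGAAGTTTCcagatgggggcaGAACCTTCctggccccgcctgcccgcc
Hspe1, bases -98 to -69, chr1:55088050-55088079, plus strand: cacggtccgTTCTAGAACCTTCCGGAAggc
Hspd1, bases -153 to -124, chr1:55088056-55088085, minus strand: cgcggggccTTCCGGAAGGTTCTAGAAcgg

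The Hspe1 and Hspd1 stretches are largely the same DNA read on opposite strands, because the 2 genes lie head to head on chromosome 1 and share a promoter. Of the 10 members, 8 were in the promoter table. A 2-unit element (GAANNTTC or TTCNNGAA, both strands searched, from 250 bases before to 50 after the start) occurred in at least 1 promoter of 7 of them, namely Hspa1a, Hspa1b, Hsph1, Hspb1, Hspd1, Hspe1 and Bag3. In Bag3 the match began after the start, at base 43. A match was present in 15.1% of the 32851 promoters searched, so a single match is common. The 3-unit form (GAANNTTCNNGAA or TTCNNGAANNTTC, which contains the 2-unit form) occurred in Hsph1 (after its start), Hspd1 and Hspe1, against 0.603% of all promoters. Neither Dnajb1 promoter held a match, which says only that these letters are not in that window. A match describes letters and does not show that a factor was bound.

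The coding sequences of Hspa1a and Hspa1b differed at 11 of 1929 aligned bases, an identity of 99.4%, and the 130 upstream bases shown differed at 1. How the authors' counting treated reads that match both genes is not given in the sources used here, so the split between the pair is uncertain and their summed counts were tested as well. Hspa1a made up 3.57% to 44.1% of the pair's counts in liver (median 20.7%), 44.9% to 55.4% in prefrontal cortex and 49.4% to 63.0% in striatum. The genes lie at chr17:34969359-34972156 (Hspa1a) and chr17:34956429-34959238 (Hspa1b). The other members lie at chr9:40801276-40805202 (Hspa8), chr5:149616843-149636498 (Hsph1), chr8:83608175-83612653 (Dnajb1), chr12:110691036-110696395 (Hsp90aa1), chr5:135887919-135889563 (Hspb1), chr7:128523583-128546981 (Bag3), chr1:55077833-55088243 (Hspd1) and chr1:55088148-55091317 (Hspe1). Hspd1 and Hspe1 overlap by 96 bases, and without a stated use of strand the reads from that stretch cannot be told apart.

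Library totals ran from 7381179 to 10203247 counts in liver, 8722232 to 12135200 in prefrontal cortex and 8283032 to 12019651 in striatum. Hepatocyte markers summed to 70432 counts per 1000000 (CPM) or more in every liver library and to at most 35.7 in every brain library, in keeping with the tissue labels. Neuron markers summed to at most 46.6 CPM in liver. In whole-tissue RNA, fewer cells of a type and less RNA per cell cannot be told apart. Levels below are CPM after trimmed-mean (TMM) scaling, and differences are log2 fold changes ± standard error (SE) from edgeR's quasi-likelihood test, with Benjamini-Hochberg adjustment over all genes tested in the tissue. A member is said to have risen or fallen where its adjusted p was under 0.05. The comparisons of dose groups within a tissue share libraries, so they are not independent of each other.

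In vehicle mice the liver made relatively more of the transcripts of the mitochondrial chaperonin genes, Hspb1 and Bag3, and both brain regions made more of Hsp90aa1 and Hsph1. On the per-length scale (CPM per kilobase of the longest transcript, mean ± SD, n = 4), Hspa8 was the highest of the 10 in every tissue, at 699 ± 129.6 in liver, 533 ± 36.8 in prefrontal cortex and 495 ± 19.8 in striatum. In liver the next levels were Hspe1 at 271 ± 62.8, Hspd1 at 219 ± 27.0 and Hsp90aa1 at 71.2 ± 12.5. Hspe1 and Hspd1 overlapped in their libraries' ranges, and so did each neighbouring pair in the run Hspb1, Bag3, Dnajb1, Hspa1b and Hsph1, which lay between 40.99 and 14.2. Hspa1a was lowest in liver at 3.48 ± 2.08. In both brain regions the order began Hspa8, Hsp90aa1, Hsph1, Hspd1, Hspe1, with Hsp90aa1 at 297 ± 22.9 in prefrontal cortex and 245 ± 22.4 in striatum. Bag3 came last there, at 2.57 ± 0.0902 in prefrontal cortex and 4.04 ± 0.199 in striatum. The ranges of Hspa1b, Hspb1 and Hspa1a overlapped in prefrontal cortex, and those of Hsph1, Hspd1 and Hspe1, of Dnajb1 and Hspb1, and of Hspa1a, Hspa1b and Bag3 overlapped as neighbours in striatum.

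**Figure D1:**
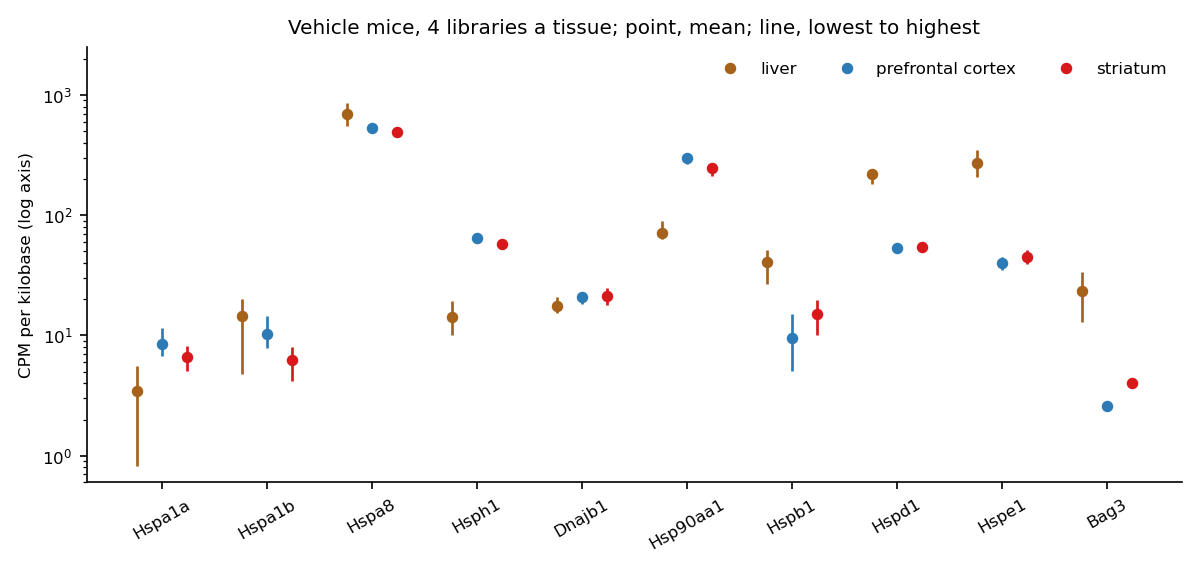
Levels of the 10 members in the vehicle group, in CPM per kilobase of transcript on a log axis, for liver, prefrontal cortex (PFC) and striatum. Points are means of 4 libraries and lines run from the lowest to the highest library. Hspa8 is highest in each tissue, and Bag3 is lowest in both brain regions.

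Between vehicle liver and vehicle prefrontal cortex 9 of the 10 members passed the test, where 84.9% of all genes did. Of these, 5 were higher in liver: Bag3 by 3.15 ± 0.256 (adjusted p = 9.36e-08), Hspe1 by 2.71 ± 0.157, Hspb1 by 2.10 ± 0.354, Hspd1 by 2.01 ± 0.128 and Hspa8 by 0.36 ± 0.140 (adjusted p = 0.0283). Hsph1 (-2.21 ± 0.161), Hsp90aa1 (-2.09 ± 0.138), Hspa1a (-1.32 ± 0.382, adjusted p = 0.00801) and Dnajb1 (-0.28 ± 0.122) were lower. The Hspa1b difference, 0.48, had an adjusted p of 0.250. The call was lost for Hspa1a without vehicle animal 3 (-1.25, adjusted p = 0.0573), for Hspa8 without animal 4 (0.32, adjusted p = 0.118) or 7 (0.30, adjusted p = 0.133), and for Dnajb1 without animal 3 (-0.29, adjusted p = 0.101), 7 (-0.31, adjusted p = 0.0689) or 8 (-0.19, adjusted p = 0.201). The sum of Hspa1a and Hspa1b differed by -0.11 between these tissues, opposite in sign to Hspa1b alone.

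Against vehicle striatum all 10 members passed in vehicle liver, with 83.7% of all genes passing, in the same directions and with Hspa1b higher in liver by 1.19 (adjusted p = 0.0170). With the pair summed the difference was 0.43 (adjusted p = 0.324). The part of the uncertain split of reads in the opposite calls of Hspa1a and Hspa1b was not tested. Of these calls, 4 depended on single animals. Hspa1a (-0.96) was lost without animal 3 (-0.94, adjusted p = 0.133) or 8 (-0.47, adjusted p = 0.116). Hspa1b was lost without animal 3 (1.02, adjusted p = 0.0910) or 4 (0.96, adjusted p = 0.0590). Hspa8 (0.46) was lost without animal 7 (0.37, adjusted p = 0.0953). Dnajb1 (-0.32) was lost without animal 3 (-0.35, adjusted p = 0.0866), 7 (-0.35, adjusted p = 0.0803) or 8 (-0.12, adjusted p = 0.483). Within the vehicle brain, Bag3 was higher in striatum than in prefrontal cortex by 0.65 ± 0.137 (adjusted p = 0.00379), 1 member of 10 against 22.2% of all genes. Hspa1b, at -0.72 ± 0.241, had an adjusted p of 0.0530. Oligodendrocyte markers were higher in striatum for 4 of 4 genes and neuron markers lower for 4 of 5. Striatal neuron markers summed to 833.1 to 2154.5 CPM in vehicle prefrontal cortex and 2099.1 to 4783.8 CPM in vehicle striatum, overlapping. Cortical neuron markers summed to 1750.4 to 2160.8 CPM and 71.3 to 1091.1 CPM, so the striatal libraries varied in them. The part of these markers in the Bag3 difference was not tested.

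In liver, inducible HSP70 transcripts were several-fold lower at the high dose than in vehicle mice, and Hspa1b passed the test. Hspa1b stood at 25.7, 29.5, 30.2 and 7.74 CPM in vehicle animals 3, 4, 7 and 8, and at 2.51 to 8.04 CPM (median 3.62) in the 6 high-dose animals. Vehicle animals 3, 4 and 7 lay far above every high-dose library, and animal 8 lay inside the high-dose range. Hspa1b fell by 2.48 ± 0.477 on the log2 scale (adjusted p = 0.0134), the 1 member called among 10, while 2.80% of the 12968 genes tested were called, 0.995% lower and 1.80% higher. Leaving out vehicle animal 3 gave -2.43 (adjusted p = 0.0656) and leaving out animal 4 gave -2.35 (adjusted p = 0.0676), so the call rested on each of these libraries, while the size of the change did not.

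Hspa1a stood at 5.13, 7.84, 8.97 and 1.43 CPM in the same vehicle animals and at 0.136 to 2.82 CPM (median 1.51) at the high dose. Animal 8 was again the low vehicle library, and the groups overlapped through it. The difference was -2.02 ± 0.645 (adjusted p = 0.0808). These are low counts, 12 to 85 per vehicle library and 1 to 26 per high-dose library. With the counts of both genes summed, inducible HSP70 fell by 2.38 ± 0.493 (adjusted p = 0.0204).

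The HSP70 co-chaperones pointed the same way without passing. Dnajb1 was at 30.9, 28.3, 33.9 and 26.8 CPM in vehicle and 14.4 to 22.1 CPM at the high dose. These groups did not overlap, as for 3.50% of all genes on the lower side, and Dnajb1 was the 1 member whose groups separated. The Dnajb1 difference was -0.67 ± 0.214 (adjusted p = 0.0817). Bag3 was at 42.5, 27.6, 46.8 and 19.2 CPM in vehicle and 15.8 to 30.8 CPM at the high dose, and its difference was -0.76 ± 0.255 (adjusted p = 0.0882). Hsph1 was at 41.5, 34.2, 49.9 and 28.1 CPM against 16.9 to 31.6 CPM (-0.83 ± 0.298, adjusted p = 0.107). Vehicle animals 3 and 7 were high for both genes, and the groups overlapped for both.

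Neither Hspa8, Hsp90aa1, Hspb1 nor the chaperonin genes were called. The Hspa8 difference was 0.19 (adjusted p = 0.658) and that of Hsp90aa1 0.11 (adjusted p = 0.810). Hspb1 was at 13.5 to 27.9 CPM in vehicle and 24.005 to 52.4 CPM at the high dose, a difference of 0.67 ± 0.384 (adjusted p = 0.284). Hspd1 was at 258 to 343 CPM in vehicle and at 142.5 to 398 CPM (median 175.7) at the high dose, where 4 of 6 libraries lay below every vehicle library and animal 55 above them all. The chaperonin genes Hspd1 and Hspe1 differed by -0.45 ± 0.261 and -0.17. The median over the 10 members was -0.56, beside 0.02 over all genes, and 3 of the 10 were positive, beside 51.9% of all genes. At an unadjusted p under 0.05, 5 members passed, all lower, beside 24.2% of all genes. DESeq2 called 3: Hspa1b, Hspa1a (-2.03, adjusted p = 0.0246) and Dnajb1 (-0.66, adjusted p = 0.0484).

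**Figure D2:**
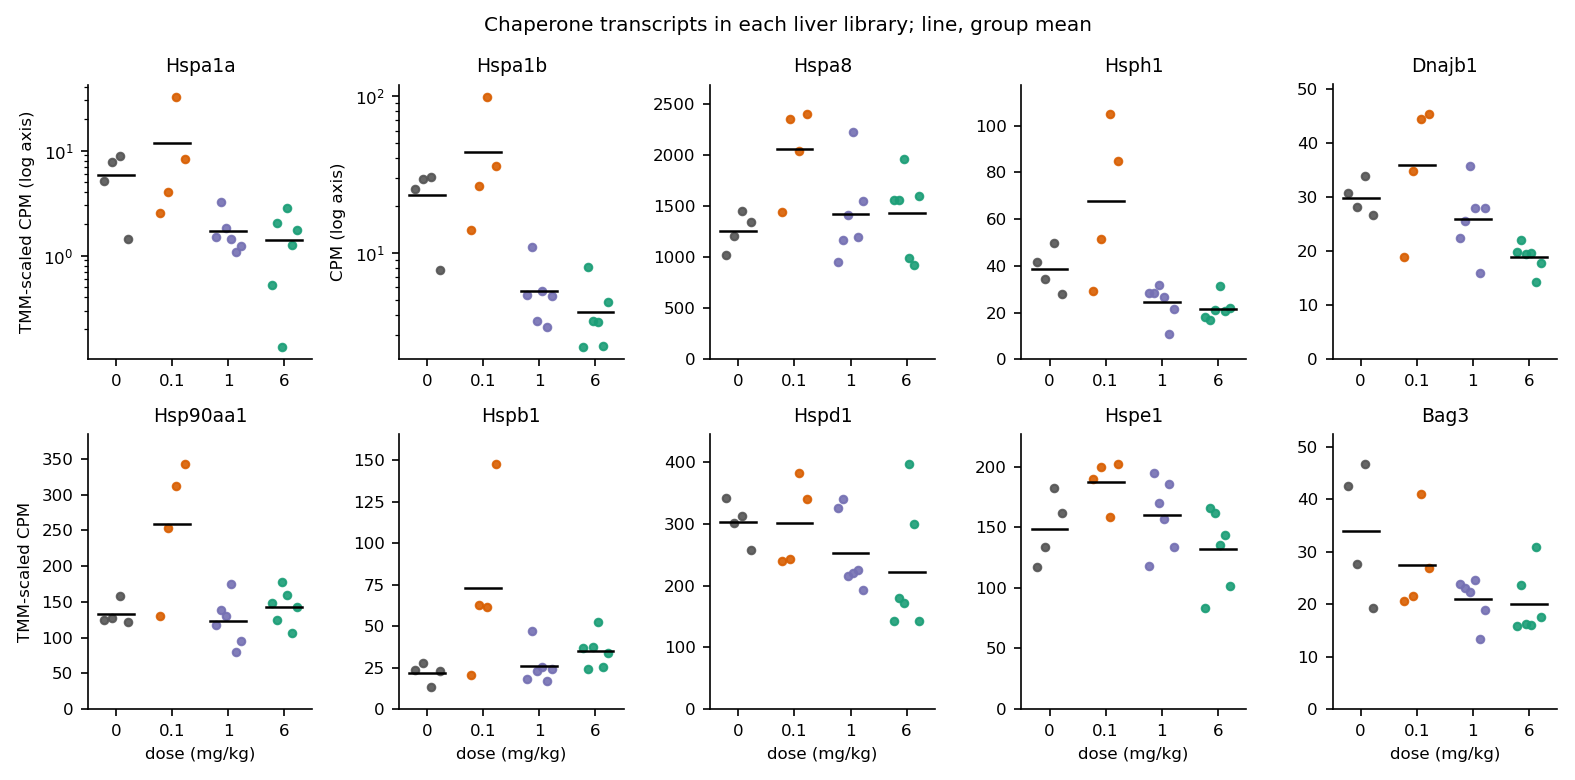
Liver levels of the 10 members in CPM by dose group (0, 0.1, 1 and 6 mg/kg), with Hspa1a and Hspa1b on log axes and the others on linear axes from 0. Points are libraries and lines mark group means. Hspa1b lies at 7.74 to 30.2 CPM in vehicle and at 2.51 to 8.04 CPM at 6 mg/kg, and animal 28 is the high library of the 0.1 mg/kg group for both genes.

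At the middle dose the inducible HSP70 genes were also low in liver, although edgeR called 0 members (0.0% of all genes, with 4 members and 8.44% of genes at an unadjusted p under 0.05, and 1 member called by DESeq2). Hspa1b was at 3.37 to 10.9 CPM (median 5.30) and Hspa1a at 1.09 to 3.22 CPM (median 1.47). The Hspa1b difference from vehicle was -2.03 ± 0.468 (adjusted p = 0.247 by edgeR, 0.0124 by DESeq2) and that of Hspa1a -1.76. Vehicle animal 8 again fell inside the range of the dosed libraries. Bag3 (-0.70) and Hsph1 (-0.64) differed in the same direction, and the other 6 members lay between -0.26 and 0.22.

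At the low dose most members were nominally higher in liver than in vehicle, and edgeR called 0 of 10, where 0.0154% of genes were called. There were 4 members at an unadjusted p under 0.05 (4.10% of genes), and DESeq2 called 1. Hspb1 was at 20.8, 62.5, 61.4 and 147.87 CPM in animals 23, 25, 28 and 29 and differed from vehicle by 1.73 ± 0.421 (adjusted p = 0.424). Hsp90aa1 was at 129.71, 253.34, 312.19 and 343.41 CPM, beside 122.09 to 159.0 CPM in vehicle, a difference of 0.96 ± 0.258 (adjusted p = 0.733). In both genes animal 23 lay at the vehicle level and the other 3 above every vehicle library. The differences of Hspa1a (1.01), Hspa1b (0.91), Hsph1 (0.81) and Hspa8 (0.71) all had an adjusted p of 0.994. Animal 28 held the highest Hspa1a (32.4 CPM) and Hspa1b (98.7 CPM) of any liver library. The median over the members was 0.76 with this animal and 0.28 without it, beside -0.00135 over all genes.

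A trend over dose rank (0, 1, 2 and 3 for the 4 groups) used all 20 liver libraries. The slope was called negative for 5 members and positive for 0, where 4.81% of genes were called, 1.96% lower and 2.85% higher. Per dose step Hspa1b fell by 1.17 ± 0.240 (adjusted p = 0.0165), Hspa1a by 1.00 ± 0.273 (adjusted p = 0.0421), Hsph1 by 0.46 ± 0.133 (adjusted p = 0.0495), Dnajb1 by 0.27 ± 0.0765 (adjusted p = 0.0469) and Bag3 by 0.26 ± 0.0774 (adjusted p = 0.0495). These are the inducible HSP70 genes and co-chaperones of HSP70. The slopes of Hspa8 (-0.02), Hsp90aa1 (-0.12), Hspb1 (-0.07), Hspd1 (-0.16) and Hspe1 (-0.09) were not called. The slope does not describe a steady fall: among the 5 called genes, Bag3 had its highest group mean in vehicle and the other 4 had theirs at the low dose. So had uncalled members, Hspa8, Hsp90aa1 and Hspb1 among them. The group means of Hspa1b were 23.3 CPM in vehicle, 43.7 at the low dose, 5.70 at the middle dose and 4.19 at the high dose. Leaving out single libraries kept the Hspa1b trend called in all 20 cases (adjusted p from 0.00398 to 0.0426). The call was lost in 12 of 20 cases for Hspa1a, 14 for Dnajb1, 15 for Hsph1 and 17 for Bag3. Most of the 5 calls were also lost without the filter or with a slope over mg/kg, as given in the closing section.

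Between low and high dose, Hspa1b and Hsph1 fell in liver. Hspa1b was at 13.9, 26.7, 98.7 and 35.5 CPM at the low dose, all above the highest high-dose library at 8.04 CPM, a separation found for 1.72% of genes on the lower side and for no other member. It fell by 3.39 ± 0.481 from low to high dose (adjusted p = 0.00862). Hsph1, at 29.1, 51.5, 105.01 and 84.9 CPM at the low dose, fell by 1.64 ± 0.296 (adjusted p = 0.0395). These 2 members were among 5 genes called in all, 0.0386% of those tested, with 0.0231% called lower. The third gene called lower was the chaperone gene Dnajb9 of the endoplasmic reticulum (ER), which fell by 1.32 (adjusted p = 0.0395, lost in 8 of 10 cases without single libraries). Of 13 ER chaperones all 13 were negative in this contrast, with 12 at an unadjusted p under 0.05, 7 called lower by DESeq2 and a median of -0.93, and their part in the result was not tested. The Hspa1b call held without any 1 library (log2 from -3.69 to -2.61, adjusted p at most 0.0481). The Hsph1 call was lost in 8 of 10 such cases, and without animal 28 it stood at -1.35 (adjusted p = 0.159).

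The remaining liver differences between high and low dose were all negative. They were -3.04 ± 0.639 for Hspa1a (adjusted p = 0.0710), -0.93 ± 0.213 for Dnajb1 (adjusted p = 0.0945), -0.86 ± 0.231 for Hsp90aa1 (adjusted p = 0.156), -1.07 for Hspb1, -0.52 for Hspa8, -0.51 for Hspe1, -0.46 for Bag3 and -0.44 for Hspd1. The members' median was -0.89, beside 0.03 over all genes, and 8 members passed at an unadjusted p under 0.05, beside 12.8% of genes. A fit on these 2 groups alone called 0 members and gave Hspa1b -3.38 at an adjusted p of 0.113.

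In prefrontal cortex the inducible HSP70 genes were lower at the high dose than at the low dose, and neither differed detectably from vehicle. Hspa1a was at 26.9, 22.2, 37.9 and 25.9 CPM in vehicle animals 3, 4, 7 and 8, at 35.3, 37.5, 35.0, 50.3 and 46.5 CPM in low-dose animals 23, 24, 25, 28 and 29, and at 20.8 to 27.0 CPM (median 24.2) at the high dose. Every low-dose library lay above every high-dose library, and the vehicle libraries overlapped both groups. Hspa1a fell by 0.77 ± 0.150 between low and high dose (adjusted p = 0.0342). Hspa1b, at 38.8, 38.2, 42.9, 51.6 and 49.7 CPM at the low dose and 18.5 to 29.8 CPM at the high dose, also separated fully and fell by 0.83 ± 0.165 (adjusted p = 0.0342). These 2 members were called where 0.108% of the 14838 genes were, 16 genes in all and all 16 lower, and 0.842% of genes separated on the lower side.

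Summed counts of the pair fell by 0.80 ± 0.153 in prefrontal cortex (adjusted p = 0.0316). Leaving out single libraries kept the change between -0.81 and -0.68 for Hspa1a and between -0.89 and -0.76 for Hspa1b, but the adjusted p passed 0.05 in 7 of 11 cases for each gene and reached 0.151 for Hspa1a. A fit on the 2 groups alone gave an adjusted p of 0.0728 for both. Immediate early genes, which neurons switch on with activity, were tested in the same contrast. Of these, 12 of 12 were negative, 10 passed at an unadjusted p under 0.05, and DESeq2 called 2, both lower. EdgeR called only Fosb, which fell by 1.14 (adjusted p = 0.00894), from 22.9 to 46.6 CPM at the low dose to 13.4 to 25.4 CPM at the high dose. The next smallest edgeR p was that of Jun (-0.47, adjusted p = 0.0862). Of the 13 ER chaperones 12 were negative and 8 passed at an unadjusted p under 0.05. Manf fell by 0.59 and Hspa5 by 0.56, the 2 called by edgeR, and DESeq2 called 5, all lower. The Fosb call was lost without animal 28 (adjusted p = 0.0731), 29 (0.0746) or 58 (0.0556), that of Hspa5 in 7 of 11 cases, and that of Manf in 0. Of 7 glucocorticoid-responsive genes DESeq2 called 0, and the smallest edgeR p was that of Fkbp5 (-0.42, adjusted p = 0.217). The part of these groups in the HSP70 result was not tested.

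The co-chaperone Dnajb1 was at 63.3, 66.9, 79.2, 97.0 and 90.8 CPM at the low dose in prefrontal cortex and 49.8 to 64.9 CPM at the high dose, overlapping through animal 23, and differed by -0.46 ± 0.106 (adjusted p = 0.0786). Hspb1 was at 7.44 CPM in animal 23 and 17.4 to 22.97 CPM in the other low-dose animals, beside 8.77 to 12.9 CPM at the high dose (-0.68 ± 0.247, adjusted p = 0.333). Hsph1 differed by -0.14 ± 0.0582 (adjusted p = 0.392), Hspe1 by -0.30, Bag3 by -0.18 and Hspa8 by -0.12. Hsp90aa1 and Hspd1 both differed by -0.02. All 10 differences were negative, beside 50.5% of genes positive, and the median was -0.24 beside 0.00233 over all genes. At an unadjusted p under 0.05 there were 6 members, beside 10.1% of genes.

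Against vehicle, edgeR and DESeq2 both called 0 members in prefrontal cortex at each dose, and edgeR called 0.0% of genes. At an unadjusted p under 0.05 there were 1, 1 and 4 members at the high, middle and low dose, beside 9.27%, 8.29% and 6.43% of genes. At the high dose Hspa1b differed by -0.37, Dnajb1 by -0.27 ± 0.113 (adjusted p = 0.470) and Hspa1a by -0.23, and the other 7 lay between -0.01 and 0.14. At the middle dose all 10 lay between -0.16 and 0.28. At the low dose all 10 were positive, beside 51.9% of genes, with a median of 0.26, and Hspb1 (0.79 ± 0.280), Hspa1a (0.54 ± 0.167), Hspa1b (0.47 ± 0.183) and Hspe1 (0.34 ± 0.137) each had an adjusted p of 0.741. The dose trend called 0 members and 0.0202% of genes, with 2 members and 9.79% of genes at an unadjusted p under 0.05 and 0 members by DESeq2.

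**Figure D3:**
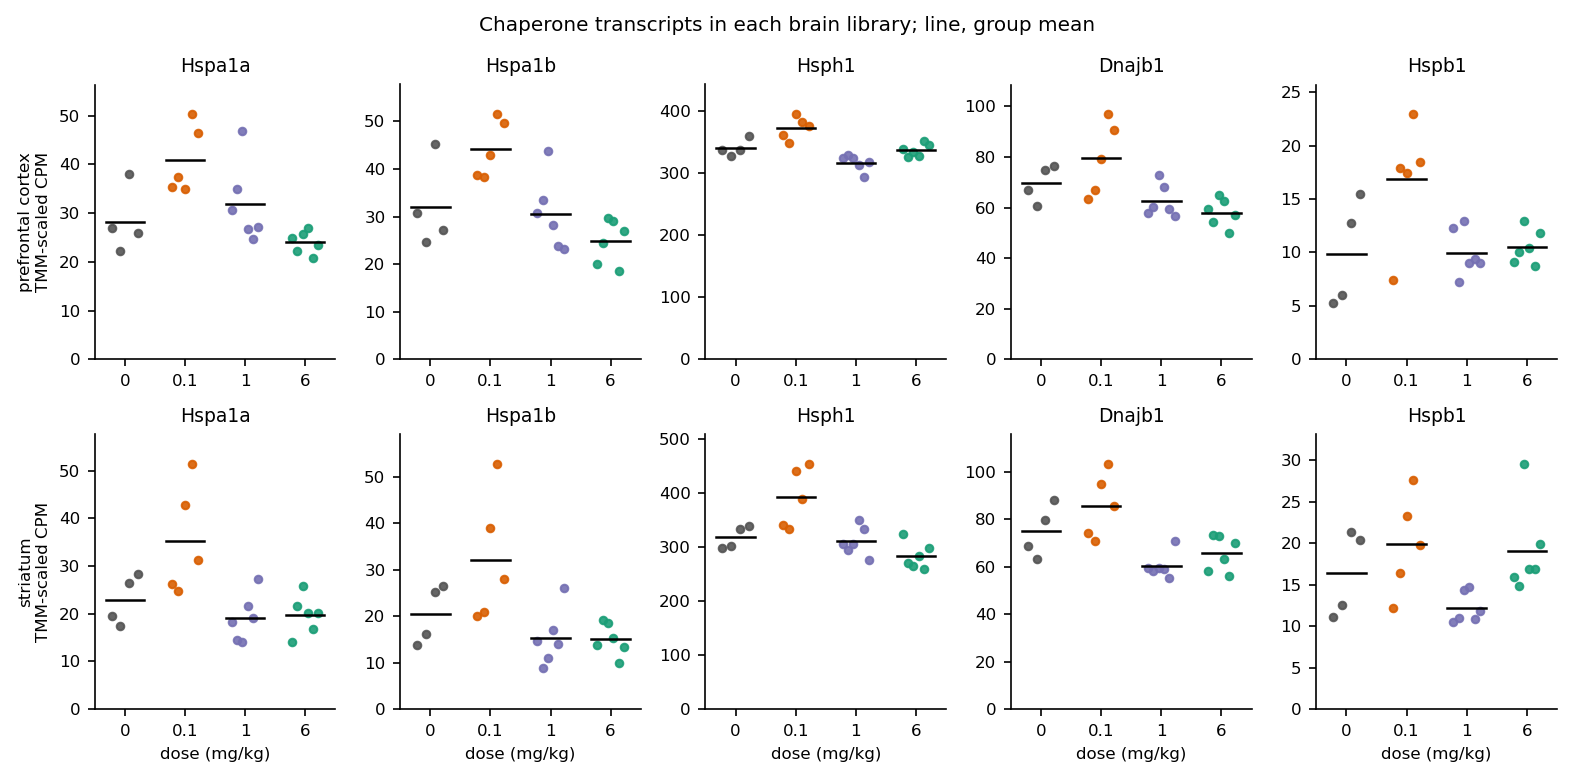
Levels of Hspa1a, Hspa1b, Hsph1, Dnajb1 and Hspb1 in CPM by dose group (0, 0.1, 1 and 6 mg/kg), in prefrontal cortex (PFC, top row) and striatum (bottom row), on linear axes from 0. Points are libraries and lines mark group means. In both regions every 0.1 mg/kg library of Hspa1b lies above every 6 mg/kg library.

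In striatum 4 members fell between low and high dose: both inducible HSP70 genes, Hsph1 and Hsp90aa1. Here 2.91% of the 15118 genes were called and 1.25% were called lower. Hspa1b was at 20.04, 20.98, 38.97, 52.78 and 28.003 CPM in low-dose animals 23, 24, 25, 28 and 29 and at 9.82 to 19.1 CPM (median 14.5) at the high dose. The groups separated, with animals 25 and 28 far above the rest, and the change was -1.10 ± 0.272 (adjusted p = 0.0365). Hspa1a, at 26.3, 24.8, 42.8, 51.5 and 31.2 CPM against 14.0 to 25.9 CPM, overlapped through animal 24 and fell by 0.84 ± 0.201 (adjusted p = 0.0355). The summed pair fell by 0.96 ± 0.229 (adjusted p = 0.0356).

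Hsph1 was at 341, 334, 442, 389 and 455 CPM at the low dose in striatum and 259 to 325 CPM (median 277) at the high dose. The groups did not overlap, and Hsph1 fell by 0.47 ± 0.0935 (adjusted p = 0.0270). Hsp90aa1 was at 1015.5, 965.53, 1108.5, 1191.6 and 1077.6 CPM against 780.05 to 927.51 CPM (median 854.44), also without overlap, and fell by 0.32 ± 0.0889 (adjusted p = 0.0487). A full separation on the lower side held for Hspa1b, Hsph1, Hsp90aa1 and Hspd1, and for 3.01% of all genes. Just past the threshold were Hspa8 (-0.29 ± 0.0813, adjusted p = 0.0507) and Dnajb1 (-0.38 ± 0.109, adjusted p = 0.0521). Hspd1 (-0.26 ± 0.0982, adjusted p = 0.118), Hspe1 (-0.16), Bag3 (-0.16) and Hspb1 (-0.06) were not called. All 10 were negative, with a median of -0.31 beside 0.01 over all genes, and 7 passed at an unadjusted p under 0.05, beside 22.3% of genes.

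These striatal calls were sensitive to single libraries. Hsph1 lost its call without animal 25 (-0.43, adjusted p = 0.0576) or animal 29 (-0.41, adjusted p = 0.0909). Hspa1a lost it in 8 of 11 cases (log2 from -0.94 to -0.66, adjusted p at most 0.0960), Hspa1b in 10 of 11 (from -1.23 to -0.85, at most 0.115) and Hsp90aa1 in 10 of 11 (from -0.36 to -0.28, at most 0.132). Cell type marker sums are given for the same contrast. Neuron markers summed to 3080 to 3765 CPM at the low dose and 2686 to 3270 CPM at the high dose, overlapping, with 0 of 5 called by edgeR or DESeq2 and 1 at an unadjusted p under 0.05. Oligodendrocyte markers summed to 3684 to 5628 CPM and 5331 to 7410 CPM, overlapping, with 0 of 4 called by edgeR, 2 called higher by DESeq2 and 2 at an unadjusted p under 0.05. Mural cell markers summed to 51.0 to 70.4 CPM and 65.2 to 102.4 CPM, overlapping, with 1 of 4 called higher by edgeR and 2 by DESeq2. Endothelial markers summed to 132.5 to 141.5 CPM and 142.3 to 167.02 CPM, without overlap, with 0 of 4 called by edgeR or DESeq2 and 1 at an unadjusted p under 0.05. Choroid plexus markers varied widely between libraries, at 33.1 to 1179.9 CPM (median 48.8) and 28.2 to 2583.6 CPM (median 210.4), with 0 of 4 called by DESeq2. Of 14 clock genes edgeR called 1, Dbp, which rose by 0.54 (adjusted p = 0.0461, lost in 10 of 11 cases without single libraries), and DESeq2 called 2 higher and 2 lower. Of the 13 ER chaperones all 13 were negative, with a median of -0.30 and 11 at an unadjusted p under 0.05. EdgeR called 2, Hspa5 (the main HSP70 of the ER), which fell by 0.53, and Hspa13, which fell by 0.37 (adjusted p = 0.0379), and DESeq2 called 5, all lower. Of 7 glucocorticoid-responsive genes DESeq2 called 2, both lower, with 4 at an unadjusted p under 0.05, and edgeR called Tsc22d3, which fell by 0.53. The Hspa5 call was lost without animal 25 (adjusted p = 0.0531) or 29 (0.0909), that of Hspa13 in 8 of 11 cases and that of Tsc22d3 in 10. Of the immediate early genes 11 were negative and 0 were called by edgeR and 3 by DESeq2, with 7 at an unadjusted p under 0.05. Their part in the chaperone result was not tested.

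Against vehicle, 0 striatal members were called by edgeR or DESeq2 at any dose, and edgeR called 0.0% of genes. The counts at an unadjusted p under 0.05 were 0, 1 and 5 members at the high, middle and low dose, beside 15.7%, 7.36% and 2.53% of genes. At the high dose the members lay between -0.45 (Hspa1b, adjusted p = 0.451) and 0.22. Neuron markers summed to 3285 to 4124 CPM in vehicle and 2686 to 3270 CPM at the high dose, without overlap. DESeq2 called 0 of these 5 markers, with 2 at an unadjusted p under 0.05, and their part in the members' values was not tested. At the middle dose the members lay between -0.42 and 0.16, with Dnajb1 at -0.31 ± 0.115 (adjusted p = 0.675). At the low dose all 10 were positive, beside 49.2% of genes, with a median of 0.26. The 5 were Hspa1b (0.65 ± 0.300), Hspa1a (0.62 ± 0.223), Hsph1 (0.30 ± 0.104), Hspd1 (0.24 ± 0.109) and Hspa8 (0.22 ± 0.0905). The dose trend called 0 members and 0.0% of genes, with 4 members and 13.1% of genes at an unadjusted p under 0.05 and 0 members by DESeq2.

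**Figure D4:**
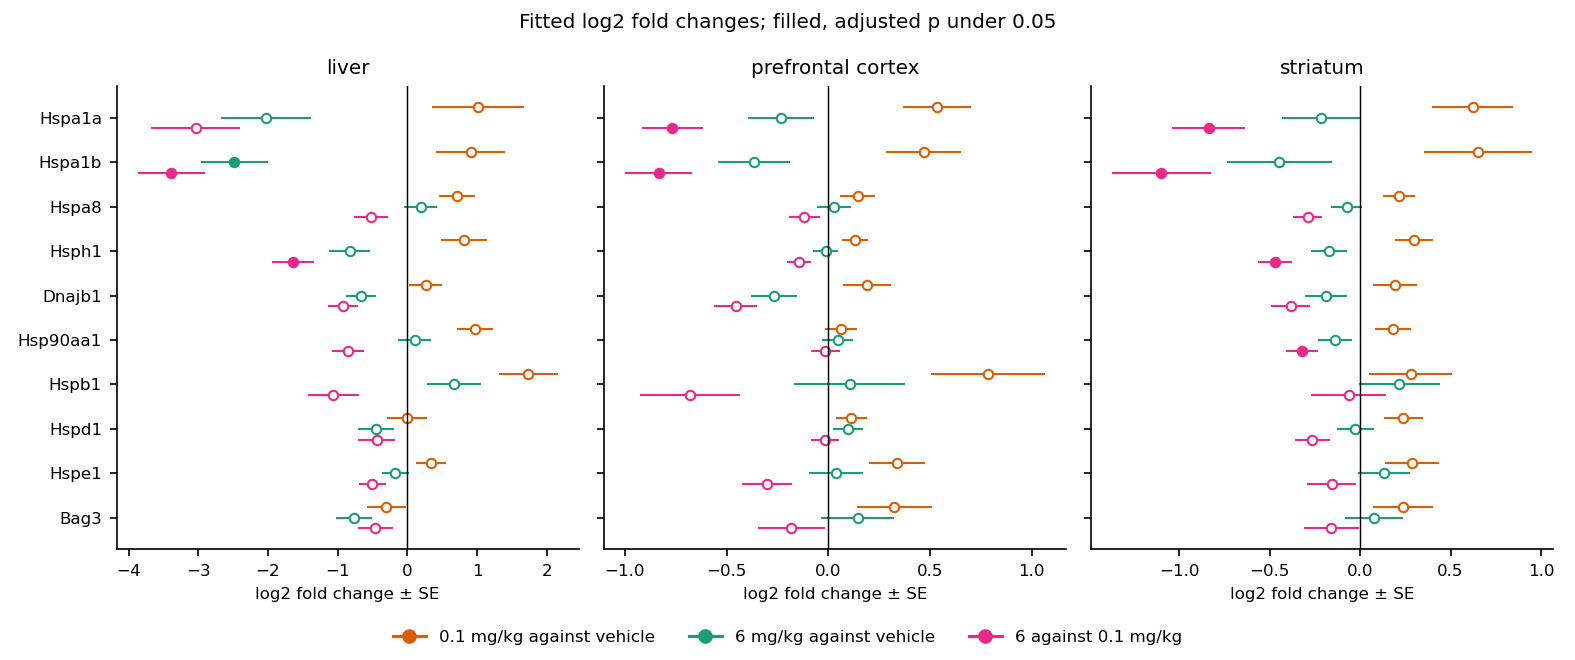
Log2 fold change with standard error for each member in liver, prefrontal cortex (PFC) and striatum, for 0.1 mg/kg against vehicle (orange), 6 mg/kg against vehicle (green) and 6 against 0.1 mg/kg (pink). Filled points have an adjusted p under 0.05. All 10 members are negative for 6 against 0.1 mg/kg in each tissue, and these 3 contrasts share libraries.

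The question whether the liver and brain changed differently at the high dose was tested as an interaction between tissue and dose. The Hspa1b change from vehicle was more negative in liver than in prefrontal cortex by 2.14 ± 0.446 (coefficient -2.14, adjusted p = 0.0321), the 1 member called, where 0.899% of genes were called and 0.286% were called lower. With the pair summed the coefficient was -2.10 ± 0.439 (adjusted p = 0.0321). It was -1.81 for Hspa1a (adjusted p = 0.0913), -0.83 for Hsph1 (adjusted p = 0.0756) and -0.92 for Bag3 (adjusted p = 0.147). The Hspa1b coefficient stayed between -2.44 and -1.90 when 1 animal was left out, and its call was lost in 6 of 10 cases, without vehicle animals 3, 4 or 7 or high-dose animals 52, 54 or 58. The call was also lost with a replicate block on animal number, as given in the closing section. Between liver and striatum the Hspa1b coefficient was -2.06 (adjusted p = 0.141), with 0 members called by edgeR (0.0277% of genes), 5 at an unadjusted p under 0.05 (14.3% of genes) and 1 by DESeq2. Between striatum and prefrontal cortex 0 members were called by edgeR or DESeq2 (0.0% of genes), 0 passed at an unadjusted p under 0.05 (6.43% of genes), and no coefficient exceeded 0.20 in size.

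After the mean of each dose group was removed, the 2 inducible HSP70 genes varied together from library to library. Of 24 relations tested within tissues, Hspa1a with Hspa1b gave r = 0.913 and rho = 0.870 in striatum (21 libraries, permutation p adjusted over the 24 = 0.00024), r = 0.884 and rho = 0.831 in prefrontal cortex (adjusted permutation p = 0.00024) and r = 0.788 and rho = 0.734 in liver (20 libraries, adjusted permutation p = 0.00612). Without the 2 libraries farthest from the median r was 0.869, 0.794 and 0.824. The near-identity of the 2 genes stands beside this relation, and its part was not tested.

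In liver Hsph1 varied with Hsp90aa1 (r = 0.804, rho = 0.741, adjusted permutation p = 0.00528, r = 0.602 without the 2 farthest libraries). It varied less firmly with Dnajb1 (r = 0.789, rho = 0.580, adjusted permutation p = 0.0151 for r and 0.0854 for rho, r = 0.504 without 2) and Bag3 (r = 0.619, rho = 0.570, adjusted permutation p = 0.0185 and 0.0753, r = 0.504 without 2). None of these passed in the brain regions: with Hsp90aa1 r was 0.107 in prefrontal cortex (rho = 0.113, adjusted permutation p = 0.707) and 0.335 in striatum (rho = 0.260, adjusted permutation p = 0.296), with Dnajb1 0.355 (rho = 0.353, adjusted permutation p = 0.305) and 0.234 (rho = 0.279, adjusted permutation p = 0.513). With Bag3 the sign was negative there, at -0.178 (rho = -0.184, adjusted permutation p = 0.586) and -0.402 (rho = -0.371, adjusted permutation p = 0.296). Hsph1 was also set against Cirbp, a gene induced by cooling. In striatum the relation was negative (r = -0.546, rho = -0.578, adjusted permutation p = 0.0320, r = -0.448 without 2), and it was -0.423 in prefrontal cortex (adjusted permutation p = 0.173) and -0.309 in liver (adjusted permutation p = 0.305). Between high and low dose, Cirbp differed by 0.35 in striatum, 0.16 in prefrontal cortex and 0.73 in liver. Rbm3, also induced by cooling, differed by 0.20, 0.02 and -0.12. EdgeR called neither gene there, and a part of temperature was not tested. Of the 45 pairs of members, 36 had a positive r in liver, 32 in prefrontal cortex and 35 in striatum, with medians of 0.328, 0.197 and 0.209.

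Members were also compared between tissues carrying the same animal number, after the dose group means were removed. Of 30 relations, 2 passed for Pearson's r. Hspb1 in striatum and prefrontal cortex gave r = 0.794 over 21 numbers (rho = 0.732, adjusted permutation p = 0.0159 for r and 0.0945 for rho, r = 0.804 without the 2 farthest). Dnajb1 in liver and prefrontal cortex gave r = 0.719 over 20 numbers (rho = 0.660, adjusted permutation p = 0.0409 and 0.0945, r = 0.681 without 2). Dnajb1 in striatum and prefrontal cortex gave r = 0.573 (adjusted permutation p = 0.154). The labels do not state that the same number is the same mouse.

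**Figure D5:**
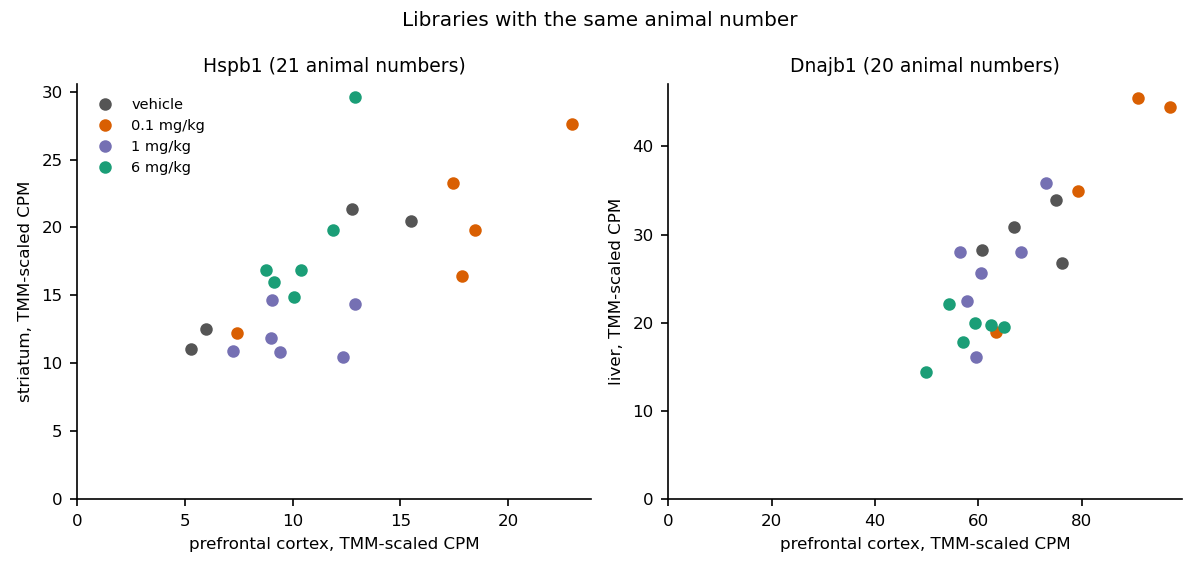
Hspb1 in striatum against prefrontal cortex (PFC) for 21 animal numbers, and Dnajb1 in liver against PFC for 20, in CPM, coloured by dose group. Each point is 1 animal number. With dose group means removed, r is 0.794 for Hspb1 and 0.719 for Dnajb1.

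Likeness to the members' mean over libraries was measured as the correlation of each gene with that mean, dose group means removed. Not every member followed it. The members' own r ran from 0.169 (Hspe1) to 0.885 (Hsph1) in liver. It ran from 0.00102 (Hsp90aa1) to 0.855 (Hspa8) in prefrontal cortex and from 0.287 (Bag3) to 0.814 (Hspb1) in striatum. The most alike genes in liver were Dnaja1 (r = 0.862), Gna12 (0.829), Txndc5 (0.821), Dusp7 (0.814) and Rrbp1 (0.795), over 20 libraries and 12958 other genes. In prefrontal cortex they were Rasl10a (0.897), Pdia6 (0.896), Mesd (0.891), Mtfp1 (0.880) and Hsp90ab1 (0.876), over 21 libraries and 14828 genes. In striatum they were Trmt61b (0.869), Nans (0.786), Manf (0.781), Hspa5 (0.779) and Arxes1 (0.777), over 21 libraries and 15108 genes. Dnaja1 is an HSP40 of the cytosol and Hsp90ab1 the constitutive HSP90, and Pdia6, Txndc5, Manf and Hspa5 act in ER protein folding. Cirbp and Rbm3 gave r of -0.382 and -0.199 in liver, 0.0873 and -0.152 in prefrontal cortex, and -0.00371 and -0.0544 in striatum. All these r values are descriptions over libraries of 1 tissue, which differ in depth.

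Other cytosolic and mitochondrial folding genes were tested as lists. The lists held heat shock factors, the wider HSP70 and HSP90 systems, the TRiC chaperonin, other small heat shock proteins and further mitochondrial chaperones. In liver at the high dose against vehicle, 2 of 54 tested were called by edgeR, beside 2.80% of all genes, and 5 by DESeq2 (2 higher and 3 lower). Dnajb4, an HSP40, fell by 0.87 ± 0.163 (adjusted p = 0.0134), from 24.4 to 29.6 CPM in vehicle to 10.2 to 18.1 CPM. Unc45a, an HSP90 co-chaperone for myosin, rose by 1.16 ± 0.231 (adjusted p = 0.0139), from 8.87 to 13.4 CPM to 14.0 to 36.8 CPM. Both calls were lost without vehicle animal 3 (Dnajb4 adjusted p = 0.0641, Unc45a 0.0685) or 4 (0.0586 for both), and that of Unc45a also without animal 7 (adjusted p = 0.0520). At an unadjusted p under 0.05 there were 15 of 54, beside 24.2% of all genes, and 39 of the 54 were negative with a median of -0.19. In the high against low dose contrast 0 of these were called in liver by edgeR, with 18 at an unadjusted p under 0.05 (12.8% of all genes) and 7 called by DESeq2 (1 higher and 6 lower).

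In striatum 6 of 54 were called between high and low dose, beside 2.91% of all genes, DESeq2 called 11 (2 higher and 9 lower), and 22 passed at an unadjusted p under 0.05, beside 22.3%. Hspa4l (-0.49), Chordc1 (-0.48), Hspa4 (-0.34), Dnajb4 (-0.33) and Dnaja1 (-0.32) fell, and the small heat shock protein gene Hspb6 rose by 0.71 (adjusted p = 0.0399). Without single libraries these calls were lost in 6 of 11 cases for Hspa4l and Chordc1, 8 for Hspa4 and Dnaja1, 9 for Hspb6 and 10 for Dnajb4. Hspa4 and Hspa4l are HSP110 relatives of Hsph1, and Chordc1 is an HSP90 co-chaperone. In prefrontal cortex 0 of 56 were called by edgeR in that contrast, with 6 at an unadjusted p under 0.05 (10.1% of all genes) and 1 called by DESeq2, and the smallest edgeR p was that of Dnajb5 (-0.58, adjusted p = 0.0696). Against vehicle at the high dose 0 were called in either brain region by edgeR or DESeq2, with 4 of 56 at an unadjusted p under 0.05 in prefrontal cortex (9.27% of all genes) and 14 of 54 in striatum (15.7% of all genes). There the smallest p-values were those of Cryab (0.44, adjusted p = 0.327) in prefrontal cortex and Hspa12a (-0.33, adjusted p = 0.208) in striatum. Of the 4 heat shock factor genes, edgeR called 0 in these contrasts, with at most 2 at an unadjusted p under 0.05, and DESeq2 called 1, higher, for high against low dose in striatum.

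Gene groups outside the cytosolic system were also tested in liver at the high dose against vehicle, and most calls were in the ER and clock lists. Of 13 ER chaperones all 13 were negative, 12 passed at an unadjusted p under 0.05, and 5 fell by edgeR's test and 11 by DESeq2, beside 0.995% of all genes called lower by edgeR, among them Dnajb9 by 1.87 and Hspa5 by 1.21, with a list median of -1.03. Of 14 circadian clock genes 5 rose and 1 fell, beside 1.80% of all genes called higher, with Per3 at 2.09, Dbp at 1.68 and Tef at 1.42. The calls of Per3, Dbp, Tef and Hspa5 were lost without vehicle animal 3 (adjusted p from 0.0656 to 0.108) or 4 (0.0586 to 0.0833), and that of Hspa5 also without vehicle animal 7 (0.0629) or high-dose animal 58 (0.0633), while Dnajb9 stayed called in all 10 cases. Dbp, an output gene of the clock that cycles strongly in liver, was at 41.4 to 180.7 CPM in vehicle, 227 to 306 CPM at the low dose and 278 to 368 CPM at the high dose. In the high against low dose contrast 0 clock genes were called in liver by edgeR or DESeq2, with 1 at an unadjusted p under 0.05. Of 4 Kupffer cell markers 1 rose, and the list summed to 89.3 to 157 CPM in vehicle and 123 to 269 CPM at the high dose. The list written for microglia (Csf1r, Cx3cr1, P2ry12 and Tmem119, genes that other macrophages can share) summed to 31.9 to 41.4 CPM in vehicle liver and 43.8 to 71.4 CPM at the high dose, without overlap, with 0 of 4 called by edgeR, 1 higher by DESeq2 and 1 at an unadjusted p under 0.05. The immediate early gene Ier2 rose by 0.94 (adjusted p = 0.0416, lost in 7 of 10 cases without single libraries), the 1 called of 8 tested. Red cell markers summed to 47.8 to 3067 CPM in vehicle and 69.3 to 230 CPM at the high dose with 0 called by edgeR, 1 by DESeq2 and 2 at an unadjusted p under 0.05. Of 7 glucocorticoid-responsive genes DESeq2 called 1, higher. The smallest edgeR p-values were those of Mt1 (1.75, adjusted p = 0.0633), Mt2 (1.71, adjusted p = 0.161) and Tsc22d3 (-0.83, adjusted p = 0.183). The part of these groups in the chaperone result was not tested.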

How the data were processed

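The authors deposited whole-number read counts per gene, 1 table per tissue with Entrez identifiers. Per the submitters' processing notes the tools included FastQC and HISAT2 with build mm10, and the labels' protocols name TRIzol and RNeasy columns for the RNA of the tissue punches and either poly(A) capture or rRNA removal, not which. The counting tool, the annotation and strand use are not given in the sources used here. Symbols and coordinates came from RefSeq GRCm38.p6. Libraries were grouped by treatment label and tissue. No 2 libraries of a group agreed within sampling noise (smallest chi-square per degree of freedom 2.94, over genes with at least 20 counts).

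Counts were analysed with edgeR 4.0.16 (filterByExpr, TMM, robust quasi-likelihood test, all dose groups of a tissue in 1 fit) in R 4.3.3, with DESeq2 1.42.0, limma 3.58.1 and sva 3.50.0 for alternatives, and correlations of log2 CPM (prior count 2) with scipy 1.17.1 and 100000 permutations within dose groups. The scripts were tested on simulated data with 200 genes changed by 1 log2 unit: the high dose against vehicle recovered 38.0% of them in liver (12968 genes), 86.5% in prefrontal cortex (14838) and 79.0% in striatum (15118). The members, the lists and the contrast of 6 against 0.1 mg/kg were chosen with earlier results of these data known. All 10 members were named in every comparison. From the wider lists at most 6 genes passing at 6 mg/kg were named per tissue, or the 2 with the smallest p; from each outside list at most 3 per tissue; and for likeness the 5 with the highest r. The alternatives were another test, another scaling, no filter, a GC and length offset, 1 surrogate variable, only the compared groups, a slope over mg/kg, each library left out, a replicate block, and Hspa1a and Hspa1b summed, the last chosen after seeing the data.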

Additional observations from a re-analysis of the deposited data

Results flagged for a closer look

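Of 120 sets of 4 to 6 libraries (10 members, 3 tissues, each dose group), 11 had 1 library far from the others relative to the set's range; chance alone gives about 1 in 20, or 6.0. In liver, middle-dose animal 42 was high for Hspa1a (3.22 CPM, next 1.82), Hspa1b (10.9, next 5.65) and Hspb1 (46.9, next 25.2). High-dose animal 55 was high in liver for Hsph1 (31.6 CPM, next 21.8), and vehicle animal 7 for Hsp90aa1 (159.0 CPM, next 126.81). In prefrontal cortex, low-dose animal 24 was low for Hspd1 (136.16 CPM, next 157.8) and middle-dose animal 50 high for Bag3 (9.29 CPM, next 6.85). In striatum, middle-dose animal 50 was high for Dnajb1 (71.0 CPM, next 59.6). High-dose animal 54 was high there for Hspb1 (29.6 CPM, next 19.8) and Hspe1 (80.2 CPM, next 52.5), and high-dose animal 53 was low for Hspd1 (117.55 CPM, next 153.58).

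The change of Hspa1b at the high dose differed between liver and prefrontal cortex by a tested interaction coefficient of -2.14 (adjusted p = 0.0321 by edgeR's quasi-likelihood test). This call was lost in 6 of 10 cases without 1 animal, and also with a replicate block on animal number.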

How the results depend on the processing

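Counts of members called changed as follows. DESeq2 called 3 members in liver at the high dose, 1 at the middle dose, 1 at the low dose and 5 for high against low dose, 3 for vehicle striatum against prefrontal cortex, and 3 and 1 for the interactions of liver with prefrontal cortex and striatum. The liver trend fell from 5 members to 1 without the filter and to 2 with the GC and length offset, with 1 surrogate variable or with a slope over mg/kg. That slope called 2 in the striatal trend, and the surrogate variable 1 in the cortical trend. Fitting only the 2 groups called 0 for high against low dose in liver and in prefrontal cortex. For that contrast in striatum (4 members called) DESeq2 and the surrogate variable called 6, median-ratio scaling 5 and the offset or no filter 3, and in cortex (2 called) DESeq2, the offset and the surrogate variable called 3. Leaving out 1 library gave 0 to 2 members for liver at the high dose, 1 to 5 for the liver trend, 1 to 4, 0 to 3 and 0 to 3 for high against low dose in liver, prefrontal cortex and striatum, 1 to 3 for vehicle striatum against cortex, 7 to 9 for vehicle liver against either brain region and 0 to 3 for the interaction of liver with cortex. For Hspa1b between vehicle liver and cortex, summing the pair reversed the sign (-0.11, adjusted p = 0.798). The replicate block on animal number called 4 members for vehicle striatum against cortex and 0 for the liver and cortex interaction, where Hspa1b stood at -2.09 (adjusted p = 0.0975). Same-numbered vehicle libraries correlated by 0.0662 on average between striatum and cortex (lowest -0.0906), and by 0.117 with the high-dose libraries added, beside -0.0232 for different numbers. The lowest pair was under 0.1, so the numbers were not taken as pairs. The causes of these shifts were not tested. Depth limits Hspa1a in liver most, at 1 to 26 counts per high-dose library.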
